A study of Rattus norvegicus with 12 samples.

Results

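The lipid-handling phagocyte genes described here are Cd68, Gpnmb, Lgals3, Spp1, Apoe, Abca1, Lpl, Fabp4, Plin2 and Ch25h, 10 of the 34525 genes in the deposited table. They were picked by gene name with earlier results of these data known, and each name occurred in 1 row. The libraries came from a rat series on chronic orofacial pain and sampled 2 brain regions. One was the thalamus, which passes sensory input on to the cortex, and the other was a part of the lower brainstem with descending control of pain, the rostral ventral medulla (RVM). The 4 groups of 3 libraries were thalamus CFA, thalamus saline, RVM CFA and RVM saline. The saline groups were labelled control and 0.9% NS, letters that usually stand for normal saline, and the treated groups by the letters CFA, which in rodent pain work usually stand for complete Freund's adjuvant. The labels used here give no dose, site, time, strain, sex or age. They do not state whether the 3 libraries of a group came from separate rats, and if they did not, the p-values measure technical spread alone. Tissue and treatment labels name the brain regions, although the extraction text speaks of retinas.

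Phagocytes that engulf lipid-rich material, such as myelin and dead cells, break it down in lysosomes, hand cholesterol to apolipoproteins through membrane transporters and store the excess as esters in lipid droplets. Oxysterols made from cholesterol activate liver X receptors, which turn on efflux genes. In the mouse brain, microglia in contact with damaged or lipid-laden tissue raise a set of such genes, often called the disease-associated microglia programme, and macrophages from blood or from the brain's borders use many of the same genes. Some of the genes have other sources in the brain, Apoe chiefly in astrocytes.

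Promoter sequence from RefSeq on GRCr8 was held for 7 of the 10 genes, in 10 entries. It runs from 250 bases before to 50 bases after a transcript start. The entries of Cd68, Gpnmb and Ch25h are shown because these were the genes with an entry whose log2 change with CFA was above 1 in both regions. Capitals mark matches to 2 motifs searched on both strands, TGANTCA (an AP-1 site) and GAGGAA (the core of a PU.1 site). The coordinates are chr10:54882392-54882691 on the minus strand for Cd68, chr4:79340878-79341177 on the plus strand for Gpnmb and chr1:241429317-241429616 on the minus strand for Ch25h.
Cd68: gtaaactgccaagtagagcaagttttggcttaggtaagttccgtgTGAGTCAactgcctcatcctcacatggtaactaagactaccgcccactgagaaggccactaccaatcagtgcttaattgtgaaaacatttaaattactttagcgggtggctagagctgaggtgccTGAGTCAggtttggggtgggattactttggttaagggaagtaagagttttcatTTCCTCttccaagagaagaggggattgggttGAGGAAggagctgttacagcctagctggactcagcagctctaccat
Gpnmb: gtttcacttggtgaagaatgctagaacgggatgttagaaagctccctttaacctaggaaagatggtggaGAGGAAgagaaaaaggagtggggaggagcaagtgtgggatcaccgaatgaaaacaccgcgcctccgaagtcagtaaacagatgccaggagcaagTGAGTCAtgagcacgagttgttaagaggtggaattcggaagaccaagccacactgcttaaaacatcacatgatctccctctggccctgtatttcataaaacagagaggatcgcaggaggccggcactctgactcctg
Ch25h: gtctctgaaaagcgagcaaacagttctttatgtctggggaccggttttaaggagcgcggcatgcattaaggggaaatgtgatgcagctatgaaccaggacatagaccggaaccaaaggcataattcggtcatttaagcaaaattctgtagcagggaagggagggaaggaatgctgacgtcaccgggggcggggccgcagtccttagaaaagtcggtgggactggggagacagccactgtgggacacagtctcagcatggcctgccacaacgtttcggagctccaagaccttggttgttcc
The AP-1 motif lay 205 and 80 bases before the start of Cd68 and 87 bases before that of Gpnmb. It was present in 7.33% of the 33469 rat promoters of this length. The PU.1 core, in 27.6% of all promoters, lay 27 bases before and 4 bases after the Cd68 start, 181 bases before the Gpnmb start and 108 bases before the start of 1 of the Apoe entries. The Ch25h window held neither. Another motif, CACGTG (an E-box), was present in 6.42% of all promoters and lay 149 bases before the start of Abca1 and 67 bases before that of 1 Plin2 entry. The exact letters AGGTCA, a nuclear receptor recognition motif, were present in 16.2% of all promoters and in 0 of the 7 genes' entries. Sites that differ from these letters were not searched. The count of 0 therefore cannot show that these promoters, that of Abca1 included, lack a nuclear receptor site. All motif matches given here describe letters only, and binding was not measured.

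Depth was 14.94 to 19.24 M reads per library, and levels are FPKM, fragments scaled by gene length and library size by the authors. A gene listed at 0 could hold up to 3 reads, or 0.156 to 0.201 CPM at these depths, counting error only. Hindbrain markers summed to 0.532 to 1.17 FPKM in the thalamus libraries and 117 to 156 FPKM in the RVM libraries, and thalamus markers to 261 to 1160 FPKM in the thalamus libraries and 191 to 237 FPKM in the RVM libraries, so the libraries of the regions separated as labelled. Thalamus CFA 1 had the lowest thalamus marker sum of the 6 thalamus libraries. Thalamus CFA 1 and 2 stood apart in choroid plexus transcripts: the 8 choroid markers summed to 10239, 2457 and 14.7 FPKM in thalamus CFA, against 28.1, 5.25 and 9.47 FPKM in thalamus saline. RVM CFA 2 stood apart from the other RVM CFA libraries in microglial and monocyte genes, as given with the RVM results.

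In the thalamus, 8 of the 10 genes were higher in CFA than in saline libraries, led by the phagocyte marker Cd68 and the lysosomal glycoprotein Gpnmb, each about 27-fold in mean FPKM. Lgals3, Spp1, Fabp4, Ch25h, Plin2 and Abca1 were also higher, while Apoe and Lpl did not pass the test. The test was limma on log2(FPKM + 1), adjusted over all 14722 genes tested, and a gene was called at an adjusted p below 0.05. Of all genes tested 4.11% were called, 3.84% higher and 0.272% lower. The median log2 change was 1.53 over the 10 genes and -0.08 over all genes tested. Of the 8, Cd68 and Fabp4 had thalamus saline means under 1 FPKM. They passed the filter on low values, a mean of 1 FPKM over the compared libraries, only through the CFA libraries. The genes were chosen with such results known, so their count is a description. These are bulk samples, in which more cells of a type and more RNA per cell cannot be told apart.

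**Figure D1:**
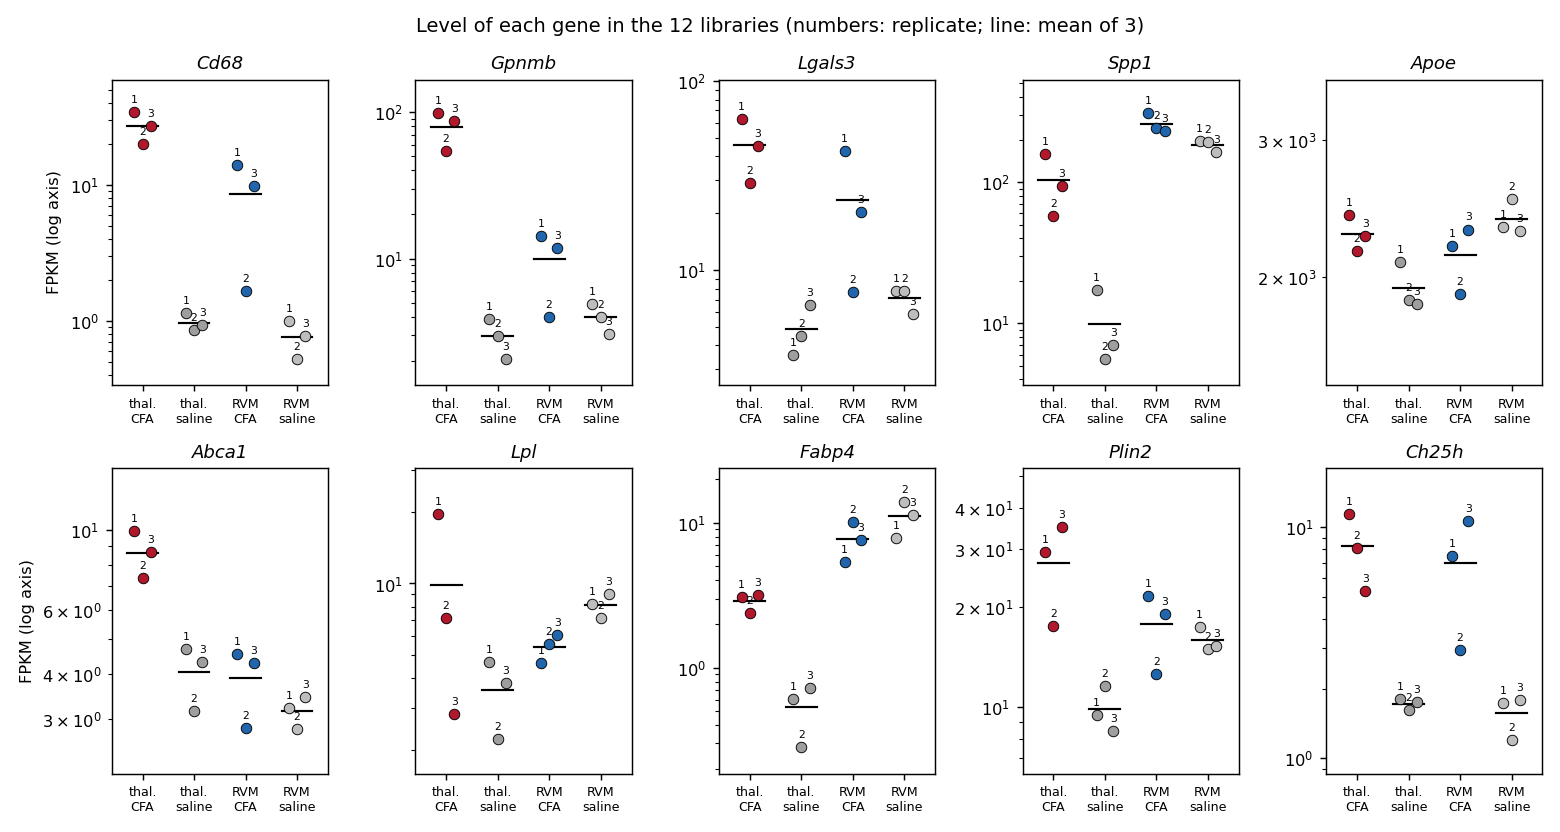
FPKM of the 10 genes on log axes in thalamus CFA, thalamus saline, RVM CFA and RVM saline, 1 point per library numbered by replicate, with a line at the mean of 3. The 3 thalamus CFA points of Cd68 lie at 19.9 to 34.4 FPKM, above the 0.854 to 1.13 FPKM of thalamus saline, and RVM CFA 2 lies at 1.67 FPKM, below the other RVM CFA libraries.

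Cd68 (ENSRNOG00000037563, chromosome 10, 56268720 to 56270640, minus strand) encodes a heavily glycosylated lysosomal membrane protein of macrophages and microglia. It measured 34.4, 19.9 and 26.9 FPKM in thalamus CFA libraries 1 to 3, against 1.13, 0.854 and 0.925 FPKM in thalamus saline. The groups were far apart, with 419 to 810 reads in CFA libraries and 17 to 28 reads in saline libraries. Mean FPKM was 27.0 ± 7.24 in CFA and 0.971 ± 0.146 in saline (SD, n = 3 each), a 27.9-fold difference. The log2 change was 3.80 ± 0.20 (SE; limma, adjusted p = 0.00058).

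Gpnmb (ENSRNOG00000008816, chromosome 4, 78694447 to 78715683, plus strand) encodes a transmembrane glycoprotein that rises in macrophages with loaded lysosomes. Its levels were 98.2, 54.1 and 87.2 FPKM in thalamus CFA, against 3.86, 2.95 and 2.07 FPKM in thalamus saline. Every CFA library lay far above every saline library. The means of 79.8 ± 23.0 FPKM in CFA and 2.96 ± 0.894 FPKM in saline (SD, n = 3 each) differed 27.0-fold, with a log2 change of 4.33 ± 0.27 (SE; limma, adjusted p = 0.00076), the largest of the 10 genes on this scale.

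Lgals3 (ENSRNOG00000010645, chromosome 15, 24141651 to 24165537, plus strand) encodes galectin-3, a sugar-binding lectin that is recruited to damaged lysosomes. It measured 63.0, 28.9 and 45.4 FPKM in thalamus CFA, against 3.56, 4.48 and 6.56 FPKM in thalamus saline. The lowest CFA library, CFA 2, was still well above the highest saline library. This gave a log2 change of 2.96 ± 0.31 (SE; limma, adjusted p = 0.00453). The calls of Cd68, Gpnmb and Lgals3 held when any 1 thalamus library was left out.

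Spp1 (ENSRNOG00000043451, chromosome 14, 6673686 to 6679901, minus strand) encodes osteopontin, a secreted phosphoprotein that binds integrins and Cd44. It measured 157, 57.4 and 94.1 FPKM in thalamus CFA, against 17.2, 5.58 and 7.0 FPKM in thalamus saline. Library 1 was the highest in each group, and the groups did not overlap. Mean FPKM differed 10.3-fold and the log2 change was 3.28 ± 0.49 (SE; limma, adjusted p = 0.0164). The call was lost without CFA 3 (log2 change 3.28), saline 2 (2.99) or saline 3 (3.13).

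Apoe (ENSRNOG00000018454, chromosome 1, 80612895 to 80617057, minus strand) encodes the main lipid-carrying apolipoprotein of the brain and was the most abundant of the 10 genes in every group. It measured 2401, 2158 and 2256 FPKM in thalamus CFA, against 2089, 1867 and 1845 FPKM in thalamus saline. The groups did not overlap, but the difference was small, 1.17-fold in mean FPKM, with a log2 change of 0.23 ± 0.11 (SE, limma, adjusted p = 0.275). Over other scalings, filters, models and left-out libraries the log2 change of Apoe was 0.19 to 0.43. The 8 astrocyte markers, none of them called, summed to 1327 to 1739 FPKM in thalamus CFA and 1086 to 1540 FPKM in thalamus saline.

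Abca1 (ENSRNOG00000018126, chromosome 5, 69857771 to 69983015, minus strand) encodes the transporter that loads cholesterol and phospholipid onto apolipoproteins. It measured 9.90, 7.34 and 8.65 FPKM in thalamus CFA, against 4.69, 3.16 and 4.32 FPKM in thalamus saline. Every CFA library was above every saline library, and the log2 change was 0.93 ± 0.16 (SE; limma, adjusted p = 0.0321). The call was lost without CFA 1 (log2 change 0.84), CFA 2 (1.03), CFA 3 (0.93), saline 2 (0.80) or saline 3 (0.98), and with no filter or a filter at 5 FPKM. On the other strand of Abca1 the table lists 1 clone-named gene at 0 in every library.

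Lpl (ENSRNOG00000012181, chromosome 16, 22537056 to 22561496, minus strand) encodes lipoprotein lipase, which frees fatty acids from lipoprotein triglyceride. It measured 19.5, 7.15 and 2.82 FPKM in thalamus CFA, against 4.66, 2.21 and 3.80 FPKM in thalamus saline. This was the only one of the 10 genes whose CFA and saline libraries overlapped in the thalamus, with CFA 3 below 2 of the saline libraries. Its log2 change of 0.96 ± 0.59 had the largest error of the 10 (SE; limma, adjusted p = 0.368). The order of the CFA libraries, 1 above 2 above 3, was also the order of their choroid marker sums, as it was for Ch25h. The part of choroid tissue was not tested. Without CFA 1 and 2 together the log2 change of Lpl was -0.21.

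Fabp4 (ENSRNOG00000010805, chromosome 2, 93792601 to 93797305, plus strand) encodes a fatty acid binding protein of fat cells, macrophages and some endothelium. It measured 3.08, 2.38 and 3.16 FPKM in thalamus CFA, against 0.603, 0.280 and 0.725 FPKM in thalamus saline. The groups did not overlap, although the saline values rested on 3 to 8 reads, against 27 to 39 reads in CFA libraries. The log2 change was 1.34 ± 0.19 (SE; limma, adjusted p = 0.0130), and the call was lost without CFA 1 (1.30) or CFA 3 (1.28). Cd68 and Fabp4 had saline means under 1 FPKM in the thalamus and so passed the filter on low values only through the CFA libraries.

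The gene for the lipid droplet coat protein perilipin 2, Plin2 (ENSRNOG00000007060, chromosome 5, 104984414 to 105010857, minus strand), measured 29.3, 17.6 and 35.0 FPKM in thalamus CFA, against 9.46, 11.6 and 8.41 FPKM in thalamus saline. CFA 2 was the lowest CFA library and still above all saline libraries. The log2 change of 1.35 ± 0.26 had the adjusted p nearest to the threshold among the 8 called genes (SE; limma, adjusted p = 0.0427). Leaving out CFA 1 (1.27), CFA 3 (1.15), saline 1 (1.33), saline 2 (1.46) or saline 3 (1.25) ended the call, as did no filter or a filter at 5 FPKM.

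Ch25h (ENSRNOG00000019141, chromosome 1, 252807065 to 252808380, minus strand) encodes cholesterol 25-hydroxylase, which makes the oxysterol 25-hydroxycholesterol. It measured 11.4, 8.14 and 5.31 FPKM in thalamus CFA, against 1.80, 1.61 and 1.74 FPKM in thalamus saline. The saline libraries were close together and the CFA libraries all lay above them, a 4.83-fold difference of means. The log2 change was 1.72 ± 0.25 (SE; limma, adjusted p = 0.0138), and the call was lost without CFA 2 (1.71), saline 2 (1.69) or saline 3 (1.73). Without CFA 1 and 2 together, the libraries rich in choroid transcripts, its log2 change was 1.22 and not called.

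Over the 10 genes, 9 had all 3 thalamus CFA libraries above all 3 saline libraries, against 12.2% of all genes tested. Cd68 and Fabp4, which passed the filter on low values only through the CFA libraries, are among the 9. Marker sums of other cells also differed between the groups. The 8 microglial markers summed to 298, 261 and 251 FPKM in thalamus CFA, against 140.0, 125 and 127 FPKM in thalamus saline, with 4 of 7 tested markers called higher and Siglech under 1 FPKM in every library. The 7 monocyte and border macrophage markers, led by Lyz2 and Plac8, summed to 638, 684 and 580 FPKM in thalamus CFA, against 42.2, 28.9 and 29.1 FPKM in thalamus saline, with 2 of 5 tested markers called higher and Cd163 under 1 FPKM throughout. Divided by the microglial sum of the same library, 6 genes had all thalamus CFA libraries above all saline libraries: Cd68 (13.5-fold in the mean ratio), Gpnmb (13.1), Spp1 (5.04), Lgals3 (4.46), Fabp4 (2.62) and Ch25h (2.30). Abca1, Lpl and Plin2 overlapped between groups on that ratio, and Apoe was lower in every thalamus CFA library (0.571-fold). Lyz2 alone made up 584, 620 and 534 FPKM of the monocyte and border macrophage sums in thalamus CFA, and 36.8, 21.8 and 21.1 FPKM in thalamus saline. Of the 5 tested markers of that list, 4 had positive log2 changes and 1 a negative one. Divided by the monocyte and border macrophage sum instead, which is mainly Lyz2, 0 of the 10 genes had all thalamus CFA libraries above saline. Cd68 (1.47-fold in the mean ratio), Gpnmb (1.45), Lgals3 (0.472) and Spp1 (0.584) overlapped between groups on that ratio, and the other 6 were lower in every thalamus CFA library. Adipocyte markers summed to 17.9, 6.33 and 8.75 FPKM in thalamus CFA, against 1.98, 1.2 and 1.84 FPKM in thalamus saline. Cfd made up 14.1, 5.06 and 8.36 FPKM of these thalamus CFA sums and Adipoq 3.36 FPKM of that of CFA 1, while Lep, Plin1, Cidec and Retn were under 1 FPKM in every library. Cfd, the only adipocyte marker tested in the thalamus, was called higher (log2 change 1.91), though not with limma-voom. Endothelial markers differed little, at 54.6 to 58.7 FPKM in thalamus CFA and 51.4 to 53.6 FPKM in thalamus saline, with Cldn5 listed at 0 throughout, and mural and meningeal markers summed to 269, 106 and 151 FPKM in thalamus CFA, against 127, 115 and 122 FPKM in thalamus saline. Within that list the fibroblast collagen gene Col1a1 measured 35.1, 5.88 and 14.7 FPKM in thalamus CFA, against 5.32, 1.75 and 2.79 FPKM in thalamus saline, and the pericyte gene Rgs5 72.8, 66.3 and 70.4 FPKM in thalamus CFA, against 82.2, 88.9 and 96.7 FPKM in thalamus saline. The list's median log2 change was 1.33, with 0 of 8 markers called. Thalamus identity markers summed to 261, 782 and 598 FPKM in thalamus CFA, against 635, 1160 and 935 FPKM in thalamus saline, and neuron markers to 960 to 1406 FPKM in thalamus CFA and 1271 to 1783 FPKM in thalamus saline. Log2 changes were negative for 8 of 8 and 7 of 8 of these markers, with 0 called. The part of these cells in the results was not tested. Without thalamus CFA 1 and 2, which leaves 1 CFA library assumed to vary like the saline libraries, Cd68 (log2 change 3.83) and Gpnmb (4.50) were called, and the log2 changes of the others were 3.02 for Lgals3, 3.27 for Spp1, 0.22 for Apoe, 0.94 for Abca1, -0.21 for Lpl, 1.45 for Fabp4, 1.75 for Plin2 and 1.22 for Ch25h.

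**Figure D2:**
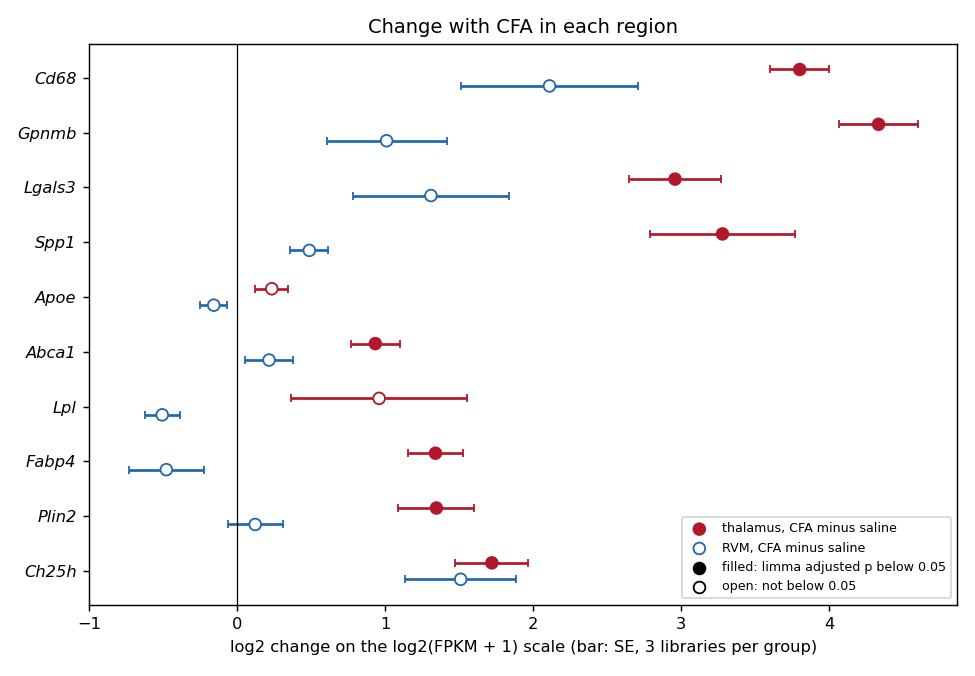
Log2 change of each gene with CFA on the log2(FPKM + 1) scale, in the thalamus (red) and the RVM (blue), with bars of 1 SE from 3 libraries per group. Filled points had a limma adjusted p below 0.05: these are 8 thalamus points and 0 RVM points.

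In the RVM, none of the 10 genes passed the test, and neither did any of the 14289 genes tested (0%). Cd68, Ch25h, Lgals3 and Gpnmb had the largest positive log2 changes, and Apoe, Lpl and Fabp4 had negative ones. At an unadjusted p below 0.05 limma counted 2030 genes and 6 of the 10, and limma-voom on the recovered reads also called 0 genes. The median log2 change was 0.35 over the 10 genes and -0.02 over all genes tested. Without RVM CFA 2, however, 4 of the 10 genes and 477 of all genes passed, 390 higher and 87 lower. The other 6 genes did not pass without it either, at log2 changes of 0.54 for Spp1, 0.38 for Abca1, 0.34 for Plin2, -0.08 for Apoe, -0.53 for Lpl and -0.68 for Fabp4.

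Cd68 measured 14.0, 1.67 and 9.82 FPKM in RVM CFA, against 0.995, 0.520 and 0.778 FPKM in RVM saline. All CFA libraries were above all saline libraries, but CFA 2 was well below the other two, and the saline values rested on 9 to 20 reads. The log2 change was 2.11 ± 0.60 (SE; limma, adjusted p = 0.254), and without CFA 2 it was 2.86 and called. Cd68 had a saline mean under 1 FPKM and passed the filter on low values only through the CFA libraries.

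Ch25h measured 7.46, 2.94 and 10.6 FPKM in RVM CFA, against 1.74, 1.2 and 1.79 FPKM in RVM saline. The groups did not overlap, with CFA 2 again the lowest CFA library. Its log2 change of 1.51 ± 0.37 did not pass (SE; limma, adjusted p = 0.242), and without CFA 2 it was 1.95 and called.

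Lgals3 measured 42.5, 7.67 and 20.3 FPKM in RVM CFA, against 7.79, 7.72 and 5.89 FPKM in RVM saline. CFA 2 fell among the saline libraries and the other two CFA libraries were above them. The log2 change was 1.31 ± 0.53 (SE; limma, adjusted p = 0.336), and without CFA 2 it was 1.91 and called. Gpnmb showed the same layout, at 14.2, 4.01 and 11.7 FPKM in RVM CFA, against 4.90, 3.98 and 3.06 FPKM in RVM saline. Its log2 change was 1.01 ± 0.41 (SE; limma, adjusted p = 0.334), and without CFA 2 it was 1.5 and called.

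Spp1 started from a high level in this region, with 310.0, 240 and 229 FPKM in RVM CFA, against 194, 193 and 164 FPKM in RVM saline. The groups did not overlap, and CFA 2 was not the lowest CFA library. On the log2 scale the change was 0.49 ± 0.13 (SE; limma, adjusted p = 0.242). Lpl measured 4.64, 5.58 and 6.05 FPKM in RVM CFA, against 8.18, 7.13 and 9.06 FPKM in RVM saline. It was the only one of the 10 with every RVM CFA library below every saline library, and its log2 change was -0.51 ± 0.12 (SE; limma, adjusted p = 0.242).

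The remaining genes overlapped between the RVM groups. Fabp4 measured 5.32, 10.1 and 7.65 FPKM in RVM CFA, against 7.87, 14.0 and 11.4 FPKM in RVM saline, a log2 change of -0.48 ± 0.25 (SE; limma, adjusted p = 0.447). Apoe measured 2192, 1903 and 2301 FPKM in RVM CFA, against 2317, 2519 and 2288 FPKM in RVM saline, a log2 change of -0.16 ± 0.092 (SE; limma, adjusted p = 0.489). Both genes were thus lower in mean level with CFA here and higher in mean level in the thalamus. Abca1 measured 4.54, 2.83 and 4.29 FPKM in RVM CFA, against 3.21, 2.82 and 3.45 FPKM in RVM saline (limma log2 change 0.21 ± 0.16, SE). Plin2 measured 21.6, 12.6 and 19.0 FPKM in RVM CFA, against 17.4, 14.9 and 15.3 FPKM in RVM saline (limma log2 change 0.12 ± 0.18, SE).

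Counting libraries, 3 of the 10 genes (Cd68, Spp1 and Ch25h) had all RVM CFA libraries above all saline libraries, against 7.27% of all genes tested. Cd68 passed the filter on low values only through the CFA libraries. For 1 gene (Lpl) all RVM CFA libraries lay below, against 12.5%. Microglial markers summed to 321, 161 and 266 FPKM in RVM CFA, against 151, 137 and 139 FPKM in RVM saline. Monocyte and border macrophage markers summed to 226, 60.1 and 226 FPKM in RVM CFA, against 47.6, 34.9 and 33.4 FPKM in RVM saline. RVM CFA 2 was the lowest CFA library on both sums, as it was for Cd68, Gpnmb, Lgals3 and Ch25h. Divided by the microglial sum, Cd68 (5.70-fold in the mean ratio) and Ch25h (2.46-fold) stayed above saline in every RVM CFA library, Apoe, Abca1, Lpl and Plin2 lay below it in every one, and the other 4 overlapped. Lyz2 alone made up 143, 50.4 and 170 FPKM of the monocyte and border macrophage sums in RVM CFA, and 44.5, 32.0 and 31.1 FPKM in RVM saline. Divided by that sum, 1 gene, Cd68 (2.25-fold), lay above saline in every RVM CFA library, 6 lay below it and 3 overlapped. Oligodendrocyte markers summed to 16822 to 17846 FPKM in RVM CFA and 22743 to 25799 FPKM in RVM saline, and astrocyte markers to 1243 to 1493 FPKM in RVM CFA and 1267 to 1468 FPKM in RVM saline. Endothelial, mural and meningeal, choroid and adipocyte sums stayed within 79.5 to 83.2, 152 to 161, 1.47 to 6.21 and 1.74 to 4.16 FPKM in RVM CFA, against 75.0 to 79.8, 165 to 182, 0.953 to 3.45 and 0.831 to 1.82 FPKM in RVM saline. None of these markers was called in the RVM. The part of these cells in the RVM values was not tested.

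**Figure D3:**
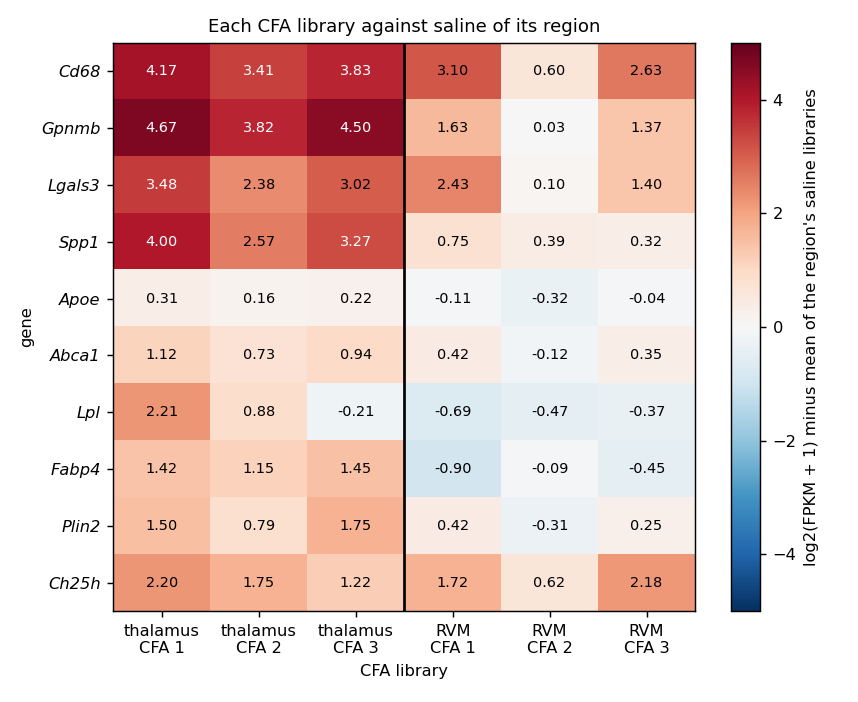
Log2(FPKM + 1) of each gene in each CFA library minus the mean of the saline libraries of its region, with the value printed in each cell; red is above saline and blue below. RVM CFA 2 has 0 genes above 1, against 4 in each of the other RVM CFA libraries and 6 to 9 in the thalamus CFA libraries.

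Set against the mean of their own region's saline libraries, the 10 genes had median log2 differences of 2.20, 1.45 and 1.60 in thalamus CFA 1 to 3 and 0.59, -0.03 and 0.33 in RVM CFA 1 to 3. At least 9 of the 10 were above the saline mean in each thalamus CFA library, and 7, 5 and 7 were in the RVM CFA libraries.

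The difference between the regions' CFA effects was tested as an interaction over all 12 libraries, which are the same libraries as in the comparisons above. None of the 10 genes passed, and none of 13738 genes did (0%), while limma counted 1560 genes and 9 of the 10 at an unadjusted p below 0.05, all but Ch25h. The log2 difference, thalamus minus RVM, was positive for all 10 genes. Gpnmb had the largest, at 3.32 ± 0.54 (SE; limma, adjusted p = 0.270), with log2 changes of 4.33 in the thalamus and 1.01 in the RVM. Next came Spp1 at 2.79 ± 0.55 and Fabp4 at 1.82 ± 0.33 (SE, limma, adjusted p = 0.270 each). Mean Spp1 was 9.94 FPKM in thalamus saline and 103 FPKM in thalamus CFA, against 184 FPKM in RVM saline and 260 FPKM in RVM CFA. The size of its log2 difference therefore depends on the unlike saline levels. Cd68 differed by 1.69 ± 0.71 (SE; limma, adjusted p = 0.420) and Lgals3 by 1.65 ± 0.68 (SE; limma, adjusted p = 0.415). Lpl (1.47), Plin2 (1.22), Abca1 (0.72) and Apoe (0.39) followed, with limma adjusted p of 0.337 to 0.440. Ch25h had the smallest difference, 0.21 ± 0.49 (SE; limma, adjusted p = 0.875), with log2 changes of 1.72 in the thalamus and 1.51 in the RVM. Its difference was -0.027 without thalamus CFA 1 and -0.23 without RVM CFA 2. Without thalamus saline 1, the thalamus saline library with the most Spp1, the Spp1 difference was 3.24 and passed, 1 of 15 genes that did.

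In saline libraries, 5 of the 10 genes were lower in the thalamus than in the RVM: Spp1, Fabp4, Lpl, Plin2 and Apoe. Of the 14396 genes tested, 45.3% were called, 22.7% lower and 22.6% higher in the thalamus. With each library rescaled to the same FPKM total the calls split into 4559 higher and 2013 lower, against 3250 and 3273 as deposited, and the median of all genes moved from -0.02 to 0.14 on the log2 scale.

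Spp1 stood furthest apart, at 17.2, 5.58 and 7.0 FPKM in thalamus saline, against 194, 193 and 164 FPKM in RVM saline. The RVM mean was 18.5-fold that of the thalamus, and the log2 difference, thalamus minus RVM, was -4.22 ± 0.36 (SE; limma, adjusted p = 0.00036). The thalamus CFA libraries, at 57.4 to 157 FPKM, remained below every RVM saline library. The 8 neuron markers summed to 1271 to 1783 FPKM in thalamus saline and 3097 to 3617 FPKM in RVM saline. They went both ways, with 5 called lower in the thalamus and 2 called higher. Nefl averaged 246 FPKM in thalamus saline and 862 FPKM in RVM saline, whereas Syt1 averaged 277 and 74.9 FPKM. The part of neurons in the Spp1 level was not tested. Fabp4 was at 0.280 to 0.725 FPKM in thalamus saline and 7.87 to 14.0 FPKM in RVM saline, a log2 difference of -2.95 ± 0.22 (SE; limma, adjusted p = 0.000248). Its thalamus CFA libraries also lay below all RVM saline libraries. The endothelial marker sum was 51.4 to 53.6 FPKM in thalamus saline and 75.0 to 79.8 FPKM in RVM saline, and its part in the Fabp4 level was not tested.

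Lpl differed by -1.04 ± 0.22 (SE; limma, adjusted p = 0.00893) and Plin2 by -0.65 ± 0.12 (SE; limma, adjusted p = 0.00648). Both calls held when any 1 saline library was left out, and that of Lpl was lost in a model of all 12 libraries. Apoe differed by -0.30 ± 0.089 (SE; limma, adjusted p = 0.0327). Leaving out 1 library at a time gave -0.35 to -0.25 and lost the call in 5 of 6 fits. So did setting each library to the same FPKM total (-0.11), quantile normalization (-0.16) and limma-voom (-0.22). Lgals3 (-0.49), Gpnmb (-0.34), Abca1 (0.27) and Ch25h (0.09) did not pass. Lgals3 passed without thalamus saline 3 (-0.69) and Abca1 without thalamus saline 2 (0.41), and Gpnmb passed with library quality weights (-0.55). Cd68, under a mean of 1 FPKM over the saline libraries, was not tested, and its levels of 0.854 to 1.13 FPKM in thalamus saline and 0.520 to 0.995 FPKM in RVM saline overlapped. For 5 genes every thalamus saline library was below every RVM saline library, against 29.9% of all genes tested.

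Levels per length can also be ordered within a group. In thalamus CFA the order of mean FPKM was Apoe (2272 ± 122), Spp1 (103 ± 50.3), Gpnmb (79.8 ± 23.0), Lgals3 (45.8 ± 17.1), Plin2 (27.3 ± 8.89), Cd68 (27.0 ± 7.24), Lpl (9.83 ± 8.67), Abca1 (8.63 ± 1.28), Ch25h (8.29 ± 3.07) and Fabp4 (2.87 ± 0.427), each SD over 3 libraries. Neighbours overlapped in range except Apoe above Spp1, Cd68 above Lpl and Ch25h above Fabp4. In thalamus saline Gpnmb was seventh and Cd68 ninth, at 2.96 ± 0.894 and 0.971 ± 0.146 FPKM (SD, n = 3), so the order of the genes also differed between the groups. In RVM saline Apoe (2375 ± 126 FPKM) and Spp1 (184 ± 17.2 FPKM) led again, Plin2 (15.9 ± 1.35 FPKM) and Fabp4 (11.1 ± 3.06 FPKM) came next, and Cd68 was last at 0.764 ± 0.238 FPKM (SD, n = 3).

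Other genes of the same pathways were read from 9 lists. They were written with earlier results known, and describe the setting of the 10 genes. Counts of called genes are to be read against the 3.84% of all genes tested that were called higher in the thalamus. In the RVM 0 genes of any list were called.

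Among 12 tested genes of the disease-associated microglia list, 7 were higher in thalamus CFA and 0 lower, with a median log2 change of 0.95, against -0.08 for all genes. Of these 7, Clec7a, Cst7 and Itgax had thalamus saline means under 1 FPKM and passed the filter on low values only through the CFA libraries, so they had to differ. Tyrobp, the signalling adaptor of the lipid receptor Trem2, measured 134, 103 and 108 FPKM in thalamus CFA, against 15.3, 12.7 and 15.6 FPKM in thalamus saline (log2 change 2.89 ± 0.14, SE; limma, adjusted p = 0.00048). Clec7a, the beta-glucan receptor dectin-1, measured 12.04, 7.45 and 8.87 FPKM in thalamus CFA, against 0.060, 0.124 and 0.072 FPKM in thalamus saline (limma adjusted p = 0.00065). Cst7, an inhibitor of lysosomal cathepsins, measured 5.59, 4.23 and 6.07 FPKM in thalamus CFA and was listed at 0 in the 3 thalamus saline libraries.

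Of 11 tested lipid uptake receptors and lipase partners, 3 were higher in thalamus CFA. Msr1, a scavenger receptor for modified lipoproteins, measured 3.04, 2.23 and 3.002 FPKM in thalamus CFA, against 0.034, 0.021 and 0.051 FPKM in thalamus saline (log2 change 1.85 ± 0.18, SE; limma, adjusted p = 0.00325). Axl, a receptor for dying cells, measured 20.7, 18.7 and 21.9 FPKM in thalamus CFA, against 10.5, 9.33 and 8.86 FPKM in thalamus saline (log2 change 1.02 ± 0.11, SE; limma, adjusted p = 0.00424). Olr1, a receptor for oxidized lipoprotein, had a log2 change of 1.62 ± 0.25 (SE; limma, adjusted p = 0.0191). All 3 had CFA libraries above all saline libraries, and the median of the list was 0.11. Msr1 and Olr1, with thalamus saline means of 0.036 and 0.174 FPKM, passed the filter on low values only through the CFA libraries.

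Of 14 lysosomal genes 1 (7.14%) was higher, a share near the 3.84% of all genes, and with each library at the same FPKM total 3 were. The called gene was Npc2, which carries cholesterol out of lysosomes, at 255, 168 and 178 FPKM in thalamus CFA, against 74.8, 71.0 and 76.1 FPKM in thalamus saline (log2 change 1.4 ± 0.17, SE; limma, adjusted p = 0.00683). Of 5 oxysterol genes 1 was called, and it passed the filter on low values only through the CFA libraries. This was Gpr183, the receptor for oxysterols that derive from the product of Ch25h. Gpr183 measured 7.68, 5.13 and 6.90 FPKM in thalamus CFA, against 1.28, 0.365 and 0.747 FPKM in thalamus saline (log2 change 2.09 ± 0.23, SE; limma, adjusted p = 0.00558). In the RVM it measured 7.51, 2.48 and 6.21 FPKM with CFA, against 2.09, 0.980 and 1.34 FPKM with saline (limma adjusted p = 0.243), and as with Ch25h every CFA library was above every saline library.

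Among 9 tested receptors of osteopontin and galectin-3 and other galectins, 2 were higher. Lgals3bp, a secreted glycoprotein that binds galectin-3, measured 70.9, 54.3 and 29.4 FPKM in thalamus CFA, against 6.15, 4.42 and 3.57 FPKM in thalamus saline (log2 change 3.14 ± 0.34, SE; limma, adjusted p = 0.00477). Cd44, the hyaluronan receptor that also binds osteopontin, measured 11.3, 6.87 and 7.71 FPKM in thalamus CFA, against 2.57, 0.894 and 1.05 FPKM in thalamus saline (log2 change 1.98 ± 0.29, SE; limma, adjusted p = 0.0157). Both had every CFA library above every saline library.

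The lists nearest to Abca1, Plin2 and Fabp4 held no called gene in the thalamus. They were 13 efflux and receptor genes, 9 droplet and storage genes and 3 other fatty acid binding proteins, with median log2 changes of 0.19, 0.05 and 0.35. The smallest p of each list belonged to the phospholipid transfer protein gene Pltp (log2 change 0.63 ± 0.13, SE; limma, adjusted p = 0.0562), the cholesterol-esterifying enzyme gene Soat1 (1.09 ± 0.22; limma, adjusted p = 0.0503) and the glial fatty acid binding protein gene Fabp7 (0.95 ± 0.34; limma, adjusted p = 0.198). With each library at the same FPKM total, which moved the median of all genes from -0.08 to 0.07, 3 efflux and 2 droplet genes passed. Cholesterol synthesis genes leaned the other way, with negative log2 changes for 13 of 14 genes in the thalamus (12 under 3 of 4 other scalings) and 14 of 14 in the RVM, medians of -0.31 in the thalamus and -0.36 in the RVM, and 0 calls in either region. Oligodendrocytes, large producers of cholesterol, had marker sums of 4639 to 5357 FPKM in thalamus CFA and 4802 to 7462 FPKM in thalamus saline, and their part in these values was not tested.

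**Figure D4:**
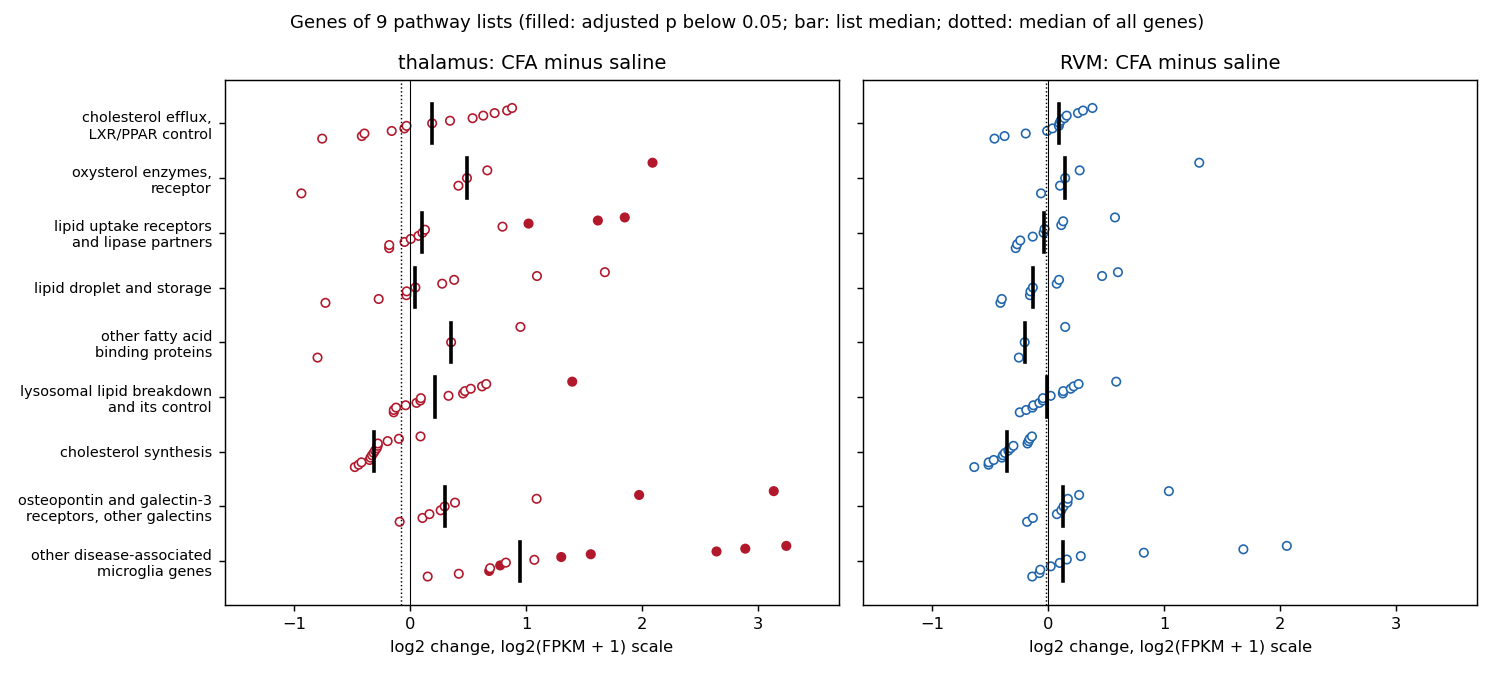
Log2 change with CFA on the log2(FPKM + 1) scale for each tested gene of 9 pathway lists, thalamus on the left and RVM on the right; filled points had a limma adjusted p below 0.05, bars mark list medians and the dotted line the median of all genes. The microglia list has 7 filled points in the thalamus, the cholesterol synthesis list lies mostly left of 0 in both panels, and the RVM panel has no filled point.

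Likeness between genes was measured as the mean absolute difference of log2(FPKM + 1), centred on each gene's own mean, over the 12 libraries and 12263 genes, so a small value means parallel levels. For Cd68 the nearest genes were Cybb (0.25) and Clec7a (0.25), and for Gpnmb Cybb (0.29) and Lyz2 (0.31). Lgals3 ran closest to Ctsc (0.23), and Ch25h to F10 (0.10) and Mefv (0.16). Abca1 lay nearest to Thbd (0.13) and Nfatc1 (0.13), and Plin2 to Ftl1 (0.17) and Tmem86a (0.18). For Lpl the nearest were Gpc4 (0.26) and Slc4a2 (0.26), for Fabp4 Mgst1 (0.30) and Pgm5 (0.32), for Spp1 Ifi27l2b (0.48) and Sncg (0.52), and for Apoe Srsf9 (0.066) and Eif4a3 (0.068). A gene with little variation, such as Apoe, gives small values with any other steady gene. For Cd68 the nearest of the other 9 genes was Gpnmb, at 0.42, further than Cybb and Clec7a. All libraries enter each value, so it shares region, treatment and depth.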

How the data were processed

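Total RNA of 12 rat libraries was sequenced, 3 in each of 4 groups set by the tissue and treatment labels. TRIzol extraction and an Illumina TruSeq library kit, not stated to keep strand, are named in the labels' protocols. Per the file headers, the authors deposited 1 table of FPKM values with gene length and coordinates for 34525 genes. Coordinates are the table's own, the genome build, aligner and counter being not given in the sources used here. FPKM multiplied by gene length gave whole multiples of 1 step for 100% of values (tolerance 0.01 read), taken as reads. The authors' divisor was 0.9335 to 1.168 times the recovered reads, so the deposited values carry a further scaling. This factor was 1.109 to 1.168 in thalamus CFA, 0.961 to 1.04 in thalamus saline and 0.933 to 0.989 in the RVM libraries. Per read, thalamus CFA values were thus scaled lower than thalamus saline values. With limma-voom on recovered reads the median log2 change of all genes in the thalamus was 0.09, against -0.08 as deposited. All 12 replicate pairs differed by more than sampling noise.

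Tests used limma 3.58.1 (R 4.3.3, empirical Bayes with trend) on log2(FPKM + 1). A gene was tested if the compared libraries averaged 1 FPKM or more, and for the interaction if those of each region did. Benjamini-Hochberg adjustment ran over all genes tested, with calls at an adjusted p below 0.05. Changes on the log2(FPKM + 1) scale understate those of low genes. CFA was compared with saline in each region, the regions in saline, and the CFA effects between regions as an interaction. Log2 changes are CFA minus saline, or thalamus minus RVM. The 10 genes, the 9 pathway and 11 marker lists (191 symbols) and the tests were chosen with earlier results of these data known. Of the symbols 3, Cd36, Ccr2 and Pecam1, matched no gene name in the deposited table and could not be read. All 10 genes are named. From each pathway list up to 3 called genes with the smallest p in the thalamus are named, otherwise the gene with the smallest p, from each marker list genes of high FPKM, and for each of the 10 the 2 most alike genes; 2 genes that these rules took are not reported here. Col1a1, Rgs5 and Itgax were named after their values were seen, and the ratios to the monocyte marker sum were added then. Alternatives were a filter at 5 FPKM or none, pseudocount 0.1, 3 other scalings, robust empirical Bayes, library quality weights, limma-voom on recovered reads, a replicate block, all 12 libraries in 1 model, and leaving out libraries. Scripts were tested on simulated counts with a dispersion of 0.05 and no library that stood apart, unlike RVM CFA 2 in the data. Calls recovered 38% of 2-fold and 100% of 4-fold changes in the thalamus, and 39% and 99% in the RVM. Of these calls 17 of 155 in the thalamus and 15 of 153 in the RVM were false. These shares hold for the simulated setting only and do not give the share of real changes found. In the data Cd68 and Ch25h, 11.1-fold and 4.45-fold higher in mean FPKM in RVM CFA than in RVM saline, were not called.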

Additional observations from a re-analysis of the deposited data

Results flagged for a closer look

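For Apoe and Fabp4 the CFA libraries of the regions lay on opposite sides of the saline mean. Every thalamus CFA library was above the thalamus saline mean and every RVM CFA library was below the RVM saline mean. In the RVM the CFA and saline libraries of both genes overlapped. The share of all genes that meet this rule was not counted. The log2 difference of the CFA effects, thalamus minus RVM, was 0.39 ± 0.14 for Apoe (SE; limma interaction, adjusted p = 0.382) and 1.82 ± 0.33 for Fabp4 (SE; limma interaction, adjusted p = 0.270), so neither passed the test of the difference. Within a region only Fabp4 in the thalamus was called.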

How the results depend on the processing

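In the thalamus Cd68 and Gpnmb kept their calls under every alternative run. The 8 called genes became 5 with a filter at 5 FPKM, at which Fabp4 was not tested, 2 without thalamus CFA 1 and 2 together, and 4 to 7 when 1 library was left out. In the RVM the count was 0 under every alternative except without RVM CFA 2, so 0 to 4 when 1 library was left out, and for the difference between regions it was 0 to 1. In saline it was 4 to 6 over all alternatives. Signs turned for log2 values not called: Lpl in the thalamus (-0.21 without thalamus CFA 1 and 2), Plin2 in the RVM (-0.030 without RVM CFA 1, up to 0.34 without RVM CFA 2), the Ch25h difference between regions (-0.027 without thalamus CFA 1, -0.23 without RVM CFA 2, up to 0.55 without RVM CFA 3, -0.29 without thalamus CFA 1 and 2) and Ch25h in saline (-0.025 without RVM saline 2, up to 0.15 without RVM saline 3). The cause was not tested. Of all genes, 605 were called in the thalamus, against 298 with the 5 FPKM filter, 1010 with quality weights, 1932 with all 12 libraries in 1 model, 320 without saline 2, 309 without saline 3 and 98 without CFA 1 and 2. In the RVM 0 were called, against 1 with no filter, without saline 1 or without saline 2, 2 without CFA 1 and 477 without CFA 2. For the difference 0 were called, against 1 without thalamus CFA 2 and 15 without thalamus saline 1.

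The labels do not say that replicate numbers mark a shared animal or batch. Deviations of same-numbered CFA and saline libraries correlated at 0.358, 0.0565 and 0.267 in the thalamus and -0.0266, 0.00068 and -0.00765 in the RVM, and those of same-numbered thalamus and RVM libraries at 0.222, 0.0795 and -0.0484 in CFA and 0.110, 0.0190 and -0.0132 in saline. Differently numbered CFA and saline libraries correlated at -0.450 to 0.316 in the thalamus and -0.0130 to 0.0212 in the RVM. Since not every same-numbered pair exceeded 0.1, the numbers were not taken to pair the samples. The same-numbered CFA and saline pairs of the thalamus were all positive, and this check cannot settle whether the numbers pair those samples. With the replicate number as a block, 7 of the 10 genes were called in the thalamus (Plin2 was lost), 0 in the RVM, 0 for the difference and 4 in saline (Apoe was lost). The thalamus count over all genes was then 1338, 755 higher and 583 lower, against 565 higher and 40 lower without the block. Depth limits Fabp4 in thalamus saline (3 to 8 reads) and Cd68 in RVM saline (9 to 20 reads) most.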
